A study of Mus musculus with 6 samples.

Results

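The 10 genes described here encode the core of the inflammasome and the interleukin-1 cytokines that it releases, together with the proteins that block those cytokines. The rule that selects them is their role in this pathway. They comprised the sensor Nlrp3, the adaptor Pycard, the proteases Casp1 and Casp4, the pore-forming Gsdmd, the cytokines Il1a, Il1b and Il18, and the antagonists Il1rn and Il18bp. All 10 were measured among 19930 named genes, each by 1 array feature.

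Gene expression was compared between H10 cells, which fuse into large multinucleated osteoclasts when they are given sRANKL, and C8 cells, which do not. Both are lines of RAW264.7, a mouse macrophage-like cell line that forms osteoclasts in culture, and both carry Lifeact-mEGFP, a fluorescent label of filamentous actin that was brought in with a retrovirus and selected with puromycin. Total RNA was taken from both lines after 2 days with sRANKL at 60 ng/mL, the early phase of osteoclastogenesis (OCG), and was hybridised to 3 arrays for H10 cells and 3 for C8 cells. Each line was grown out by limiting dilution, so each phenotype was represented by 1 line, and a difference between the phenotypes cannot be told apart from any other difference between these lines. Both lines received sRANKL, and cultures without it were not analysed here, so the values compare lines and not a response to the cytokine. Whether separate cultures gave the arrays of a line is not stated, and the p-values therefore measure only the spread between arrays, which may be technical.

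An inflammasome forms when a sensor such as NLRP3 gathers the adaptor ASC, the product of Pycard, which in turn activates caspase-1. Caspase-1 cuts the precursors of interleukin-1 beta and interleukin-18 and also cuts gasdermin D, whose freed end makes pores in the cell membrane. The product of mouse Casp4, also called caspase-11, cuts gasdermin D after sensing bacterial lipopolysaccharide in the cytosol. Interleukin-1 promotes bone resorption by osteoclasts, and the interleukin-1 receptor antagonist occupies its receptor without signalling. RAW264.7 macrophages are known to lack the ASC protein.

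The values are log2 intensities after robust multi-array averaging (RMA), so that a difference of 1 stands for a 2-fold difference. Casp1 and Casp4 rose in H10 cells, with estimated folds of 2.05 and 2.77, and the other 8 genes did not pass the test, which was limma with p-values adjusted over all 35545 features and a limit of 0.05. Il1rn was 2.16-fold higher in H10 cells with an adjusted p of 0.0516. The genes of the precursors that caspase-1 cuts had smaller estimates, with folds of 1.51 for Il18 and 1.115 for Il1b. The Il1b feature was dimmer than the median on every array, and RMA compresses differences of dim features, so its size says little. Of all named genes 1.85% rose by the same test, against 2 of the 10 here. A further 1.04% of all named genes fell in H10 cells, and 0 of these 10 did. At an unadjusted p under 0.05 the count of members that were lower in H10 cells was also 0, beside 7.67% of all named genes, and 4 were higher, beside 6.1% of all named genes. None of the 10 reached the fold of 5 that the study's methods set, which 0.206% of all named genes reached with an adjusted p under 0.05. The median log2 difference over the 10 genes was 0.22, beside -0.03 over all named genes. The RNA came from whole cultures, in which fewer cells of a type and less RNA per cell cannot be told apart.

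The promoters of the pair that rose are shown because Casp1 and Casp4 lie next to each other and moved in the same direction. Each is 250 bases before to 50 bases after an annotated gene start, from RefSeq on build GRCm38.p6, and both are on the plus strand, at chr9:5298267-5298566 for Casp1 and at chr9:5308599-5308898 for Casp4. Capitals mark every match to 5 motifs that were searched on both strands.
Casp1: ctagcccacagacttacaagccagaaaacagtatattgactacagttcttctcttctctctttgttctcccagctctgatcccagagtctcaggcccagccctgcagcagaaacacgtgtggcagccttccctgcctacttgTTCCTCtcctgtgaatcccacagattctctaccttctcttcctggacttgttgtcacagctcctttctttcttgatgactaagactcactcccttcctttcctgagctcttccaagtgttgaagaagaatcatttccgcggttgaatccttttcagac
Casp4: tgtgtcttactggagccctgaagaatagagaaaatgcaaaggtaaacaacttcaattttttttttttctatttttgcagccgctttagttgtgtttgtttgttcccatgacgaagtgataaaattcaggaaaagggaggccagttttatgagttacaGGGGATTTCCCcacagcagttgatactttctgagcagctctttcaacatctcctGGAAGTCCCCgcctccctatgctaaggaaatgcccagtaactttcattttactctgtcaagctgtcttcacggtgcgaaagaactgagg
The motifs were the core of the interferon-stimulated response element (GAAANNGAAA), the gamma-activated sequence (TTCNNNGAA), the AP-1 site (TGANTCA), the PU.1 box (GAGGAA) and the NF-kB site. In the Casp1 window the capitals are a PU.1 box read on the opposite strand, which begins 108 bases before the start. In the Casp4 window they are 3 matches to the NF-kB site that begin 93, 92 and 39 bases before the start, of which the first and second overlap and so share most of their bases. Of all 32851 windows of the same length, 28.3% held a PU.1 box and 8.46% held an NF-kB site. The 9 members that had a window held 13 windows, so some genes had several, and the shares count windows and not genes. The response element core (3.44% of windows) and the gamma-activated sequence (8.3%) were found in none of the 13. The AP-1 site (7.81%) was found in 2, for Il1a and Il1rn, the PU.1 box in 4 and the NF-kB site in 3. PU.1 boxes were also present for Il1a, Nlrp3 and Pycard, and an NF-kB site for Nlrp3. Gsdmd was not among the windows. A match describes these letters and says nothing about whether a factor binds there, and a missing match says only that the letters are not in this window.

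**Figure D1:**
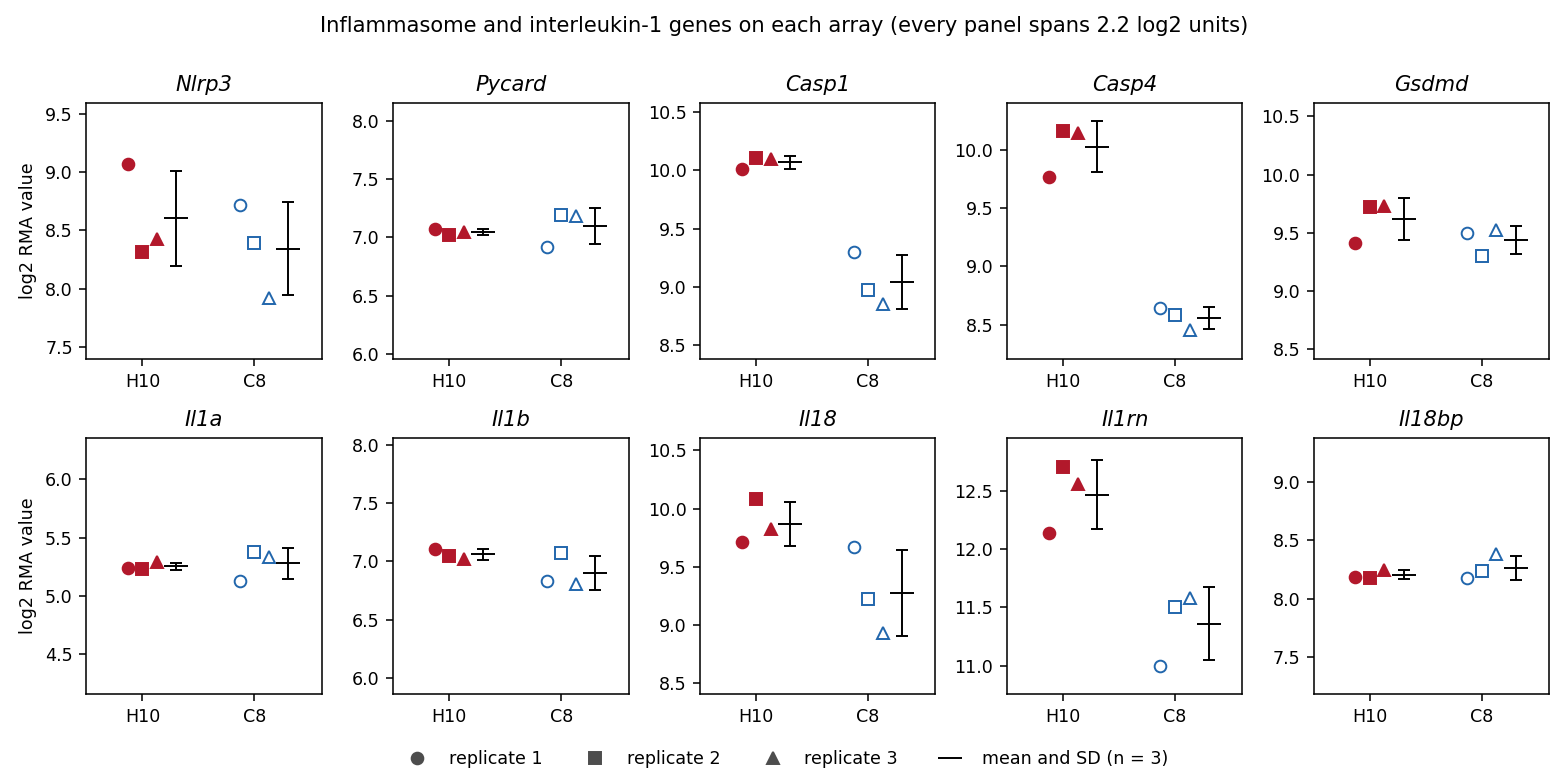
Log2 RMA value of each gene (y axis, every panel spanning 2.2 log2 units) on the 3 H10 and 3 C8 arrays (x axis), and a bar for each line's mean and SD (n = 3). All H10 points lie above all C8 points for Casp1, Casp4, Il18 and Il1rn, by a wide gap for Casp4 (lowest H10 9.77, highest C8 8.64) and by a narrow one for Il18 (9.71 and 9.67).

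The sensor and the adaptor did not differ beyond their spread. Nlrp3, the sensor that responds to potassium loss and other cell stress, had values of 9.07, 8.31 and 8.43 in H10 cells, against 8.72, 8.39 and 7.92 in C8 cells. The first array was the highest in both lines, and the ranges of the lines overlapped. The log2 difference was 0.26 with a 95% interval of -0.37 to 0.89 (adjusted p = 0.826), the widest interval of the 10 genes. Pycard had values of 7.07, 7.02 and 7.05 in H10 cells and 6.92, 7.19 and 7.18 in C8 cells. The H10 arrays lay close together and inside the C8 range. Its difference of -0.05 (95% interval -0.26 to 0.16, adjusted p = 0.918) came from a feature that was dimmer than the median feature on every array. Background intensity was not measured separately in these values, so whether Pycard RNA was present at all cannot be read from them.

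Both proteases rose in H10 cells. Casp1, which encodes the protease that matures interleukin-1 beta and interleukin-18, had values of 10.01, 10.11 and 10.10 in H10 cells, against 9.30, 8.97 and 8.85 in C8 cells. The lowest H10 array lay above the highest C8 array, and the H10 arrays were closer together than the C8 arrays. Casp1 averaged 10.07 ± 0.06 in H10 cells and 9.04 ± 0.23 in C8 cells (SD, n = 3 each), a log2 difference of 1.03 ± 0.12 (SE) or a fold of 2.05 with a 95% interval of 1.68 to 2.50 (limma, adjusted p = 0.0107). The call depended on single arrays of both lines. The adjusted p was 0.0543 without H10 replicate 2, 0.0621 without H10 replicate 3 and 0.0584 without C8 replicate 2, while the log2 difference stayed between 0.94 and 1.16 whichever array was left out.

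Casp4 had values of 9.77, 10.16 and 10.15 in H10 cells and 8.64, 8.58 and 8.45 in C8 cells. The lines were well separated, with H10 replicate 1 lower than the other H10 arrays. Casp4 averaged 10.03 ± 0.22 in H10 cells and 8.56 ± 0.10 in C8 cells, a log2 difference of 1.47 ± 0.12 (SE) or a fold of 2.77 with a 95% interval of 2.26 to 3.39 (limma, adjusted p = 0.00329). Leaving out any single array left it past the limit, with adjusted p-values of 0.00204 to 0.026.

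Gsdmd, the substrate that both caspases cut to open the membrane, had values of 9.41, 9.72 and 9.73 in H10 cells, against 9.50, 9.30 and 9.52 in C8 cells. H10 replicate 1 fell inside the C8 range and the other H10 arrays above it. The log2 difference of 0.18 (95% interval -0.09 to 0.45, adjusted p = 0.657) did not pass the test, and the interval allows a rise in H10 cells that is smaller than the estimates for either caspase.

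Among the cytokines, Il18 alone had H10 and C8 values that did not overlap. Il1a, the alpha form that acts without cleavage by caspase-1, had values of 5.24, 5.23 and 5.29 in H10 cells and 5.13, 5.38 and 5.33 in C8 cells. All its values lay below the lower quartile of their arrays, and the lines overlapped. Its log2 difference was -0.03 with a 95% interval of -0.22 to 0.17 (adjusted p = 0.958), and its sign turned when C8 replicate 2 was left out (0.02). Il1b, whose precursor needs cleavage before release, had values of 7.11, 7.05 and 7.02 in H10 cells, against 6.83, 7.07 and 6.81 in C8 cells. C8 replicate 2 reached into the H10 range, and all the values lay under the median of their arrays. The log2 difference of Il1b was 0.16 with a 95% interval of -0.05 to 0.36 (adjusted p = 0.595).

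Il18, which drives interferon-gamma production by lymphocytes, had values of 9.71, 10.08 and 9.82 in H10 cells, against 9.67, 9.22 and 8.93 in C8 cells. H10 replicate 1 and C8 replicate 1 were almost equal, and the other arrays lay apart. The log2 difference was 0.60 ± 0.20 (SE), a fold of 1.51 with a 95% interval of 1.09 to 2.09, and it missed the limit after adjustment (adjusted p = 0.273). The adjusted p was 0.0812 to 0.575 with each array left out in turn. Separation of the lines was common on these arrays, with all H10 values above all C8 values for 7.74% of named genes and for 4 of the 10 here, and all H10 values below for 12.7% of named genes and 0 of the 10.

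Of the antagonists, neither passed the test. Il1rn, which encodes the interleukin-1 receptor antagonist, had values of 12.14, 12.71 and 12.56 in H10 cells, against 11.00, 11.50 and 11.58 in C8 cells. The lines did not overlap, and the first array was the lowest of each line. Il1rn averaged 12.47 ± 0.30 in H10 cells and 11.36 ± 0.31 in C8 cells, a log2 difference of 1.11 ± 0.20 (SE) or a fold of 2.16 with a 95% interval of 1.55 to 3.02 (limma, adjusted p = 0.0516). It passed the limit without H10 replicate 1 (log2 difference 1.28, adjusted p = 0.0464), and the adjusted p ran up to 0.195 when other arrays were left out. Il18bp, which encodes a soluble protein that binds interleukin-18, had values of 8.19, 8.18 and 8.25 in H10 cells and 8.18, 8.24 and 8.38 in C8 cells. The lowest array of each line had the same value, and C8 replicate 3 lay above all H10 arrays. Its log2 difference was -0.06 with a 95% interval of -0.23 to 0.11 (adjusted p = 0.866).

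**Figure D2:**
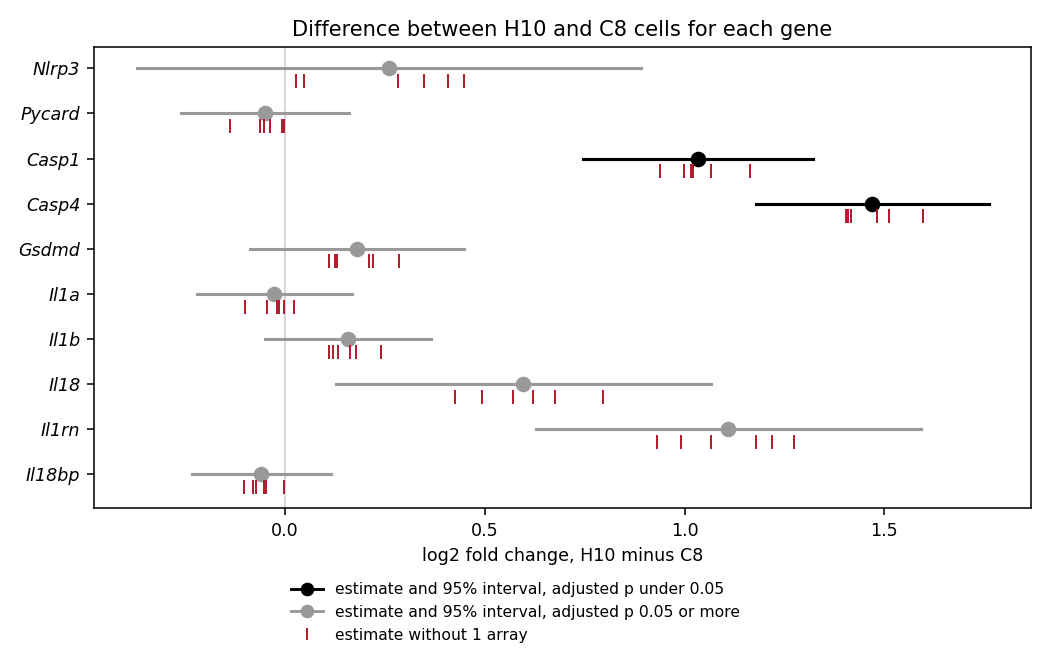
Log2 difference between H10 and C8 cells (x axis) for each of the 10 genes (y axis), with points and lines for the limma estimate and its 95% interval and ticks for the estimate with 1 array left out. The estimates of Casp4 (1.47) and Casp1 (1.03) passed the adjusted limit, Il1rn (1.11) lay between them with a wider interval, and the intervals of Nlrp3, Pycard, Gsdmd, Il1a, Il1b and Il18bp included 0.

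H10 replicate 1 was the lowest H10 array for 5 of the 10 genes, namely Casp1, Casp4, Gsdmd, Il18 and Il1rn. The share of all named genes with this array lowest is not given here, so the count shows no trait of these genes. Without replicate 1 of both lines Casp1, Casp4 and Il1rn were all past the limit.

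Each cytokine was also set against its antagonist on the same array, as the change of their log2 difference between the lines, because a difference between the levels of 2 probes has no meaning by itself. For Il1b minus Il1rn the values were -5.03, -5.66 and -5.54 in H10 cells, against -4.17, -4.43 and -4.77 in C8 cells, a change of -0.95. For Il1a minus Il1rn they were -6.90, -7.48 and -7.27 in H10 cells, against -5.87, -6.12 and -6.25 in C8 cells, a change of -1.14. The lines did not overlap in either. Il1a and Il1b differed by -0.03 and 0.16 between the lines, so these changes mostly repeat the difference of Il1rn (1.11), which did not pass the test. Il1a and Il1b are dimmer than the median feature, and whether their RNA was present cannot be read from these values. Il18 minus Il18bp went the other way, with values of 1.52, 1.90 and 1.57 in H10 cells, against 1.49, 0.98 and 0.55 in C8 cells, a change of 0.66. H10 and C8 replicate 1 differed least there. An exact two-sided permutation test over the arrays gave p = 0.1 for each of the 3 pairs and 0.1 after adjustment over them, which is the smallest p that 3 arrays against 3 allow. The first and second pair share the Il1rn values and are not separate results.

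The other genes of the pathway were taken from 8 lists of 88 measured genes, the 10 members left out. Of these 7 rose in H10 cells, 1 fell and 80 did not pass the test, and their median log2 difference was 0.03. By the same test 1.85% of all named genes rose and 1.04% fell. All the calls lay in a pair of lists, the caspases with their cofactors and the inhibitors. The lists were chosen with earlier results of these arrays known, so the place of the calls is not independent evidence on these parts of the pathway. On the list of inflammasome adaptor, caspases and cofactors 3 of 11 genes rose and 1 fell, with a median of 0.13. Gbp7, a guanylate-binding protein that interferon induces, had values of 10.16, 10.56 and 10.63 in H10 cells, against 7.96, 7.70 and 7.22 in C8 cells (log2 difference 2.82, a fold of 7.08, adjusted p = 0.00254). Irgm1, an immunity-related GTPase that interferon also induces, had values of 11.72, 12.49 and 12.32 in H10 cells and 9.49, 9.34 and 9.35 in C8 cells (log2 difference 2.78, a fold of 6.88, adjusted p = 0.0019). Gbp3, of the same family as Gbp7, had values of 8.63, 8.99 and 8.95 in H10 cells and 6.67, 6.77 and 7.0 in C8 cells (log2 difference 2.04, a fold of 4.12, adjusted p = 0.0013). The lines were far apart for each of them, and H10 replicate 1 was again the lowest H10 array. Gbp3 and Gbp7 belong to a family of similar sequence, so some of their signal may be shared. Gbp5, a further member of this family on the list, did not pass (log2 difference 0.27, adjusted p = 0.217). Casp1 and Casp4 are also known as genes that interferon induces in mouse macrophages, and what part a difference in interferon response has in their rise was not tested.

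Panx1, a membrane channel through which ATP leaves the cell, fell in H10 cells. Its values were 8.52, 8.76 and 8.60 in H10 cells, against 9.18, 9.16 and 9.31 in C8 cells, and the lines did not overlap. The log2 difference was -0.59 ± 0.08 (SE) with an adjusted p of 0.0229. Its call was lost when H10 replicate 1 (adjusted p = 0.0687), H10 replicate 3 (0.119), C8 replicate 1 (0.0583), C8 replicate 2 (0.0764) or C8 replicate 3 (0.0879) was left out. The brightest genes of the list that did not pass were Casp8, the initiator caspase of death receptors (log2 difference 0.34, adjusted p = 0.2), and Txnip, a thioredoxin-binding protein (0.09, adjusted p = 0.848).

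On the list of inhibitors of inflammasomes and caspases 4 of 11 genes rose and 0 fell, with a list median of -0.09. The 7 genes that did not pass had log2 differences of -0.34 to -0.04, beside a median of -0.03 over all named genes. At an unadjusted p under 0.05 (limma) 4 genes of the list were higher and 2 lower, beside 6.1% and 7.67% of all named genes. Trim30a, which restrains NLRP3 activation in mouse macrophages, was 40.4-fold higher in H10 cells (log2 difference 5.34, adjusted p = 0.000138). Serpinb9, whose product blocks granzyme B, stood 6.02-fold above C8 cells in H10 cells (log2 difference 2.59, adjusted p = 0.0013). The study named both genes from these same arrays, which leaves them without weight as independent evidence on the list's direction, and Trim30a has close relatives in a gene cluster whose signal may be shared. Nlrc3, which dampens innate immune signalling, had values of 8.88, 8.86 and 8.84 in H10 cells, against 8.05, 8.12 and 8.05 in C8 cells (log2 difference 0.79, a fold of 1.73, adjusted p = 0.00216). Both lines were tightly grouped and separate. Serpinb1a, an inhibitor of neutrophil serine proteases, had values of 7.02, 6.82 and 6.94 in H10 cells and 6.28, 6.22 and 6.22 in C8 cells (log2 difference 0.69, a fold of 1.61, adjusted p = 0.00713). It was dim in both lines, and without H10 replicate 3 its adjusted p was 0.0521. Birc3 and Cflar, which restrain cell death by caspase-8, did not pass (log2 differences -0.29 and -0.04, adjusted p = 0.297 and 0.972).

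**Figure D3:**
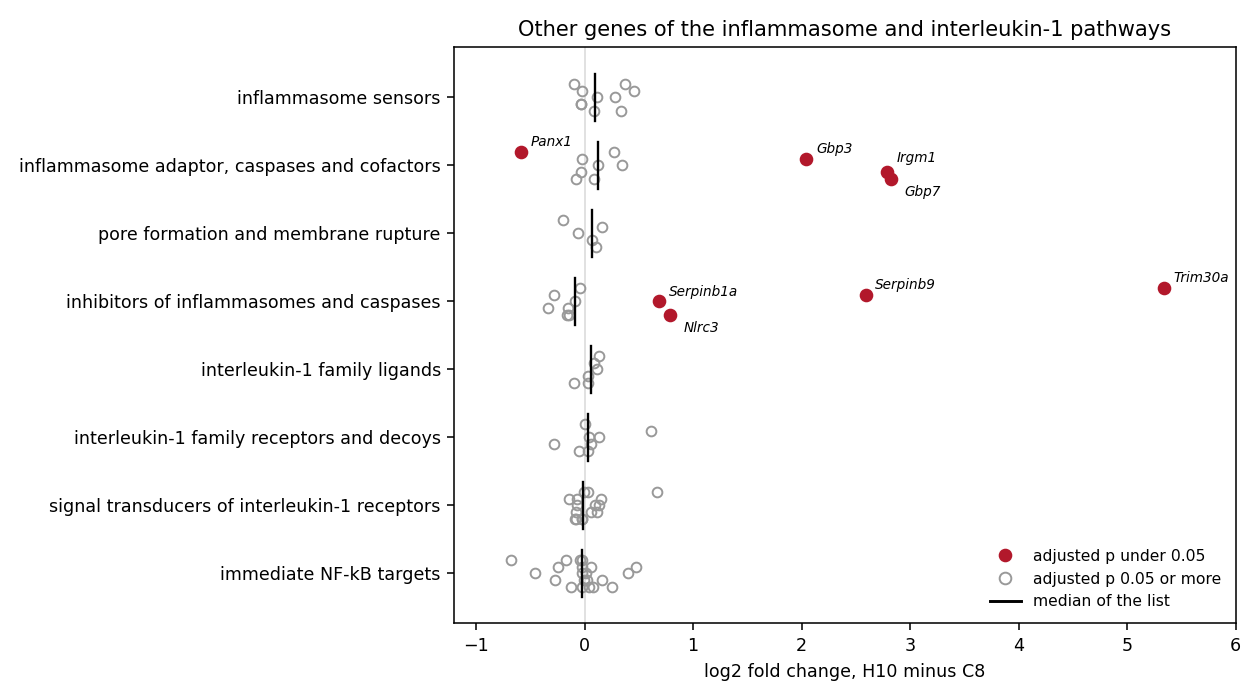
Log2 difference between H10 and C8 cells (x axis) for the 88 other genes of the 8 pathway lists (y axis), with a vertical bar at each list's median and filled points for an adjusted p under 0.05. The 7 genes that rose and Panx1 (-0.59) lie on the lists of caspases with cofactors and of inhibitors, while the medians of all the lists lie between -0.09 and 0.13.

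The remaining 6 lists held 66 genes, of which 0 passed limma's adjusted limit in either direction, while 7 were higher and 2 lower in H10 cells at an unadjusted p under 0.05, which 6.1% and 7.67% of all named genes met in those directions. Among 10 further sensors the log2 differences ran from -0.10 to 0.45 with a median of 0.10, and 7 had means under the median feature. The brightest sensors were Aim2, a sensor of cytosolic DNA (0.08, adjusted p = 0.867), and Naip2, a sensor of bacterial secretion systems (0.28, adjusted p = 0.211). The 5 other genes of pore formation and membrane rupture had a median of 0.07 and a range of -0.20 to 0.16, with Chmp4b, which takes part in membrane repair, at 0.11 (adjusted p = 0.79) and Ninj1, which ruptures the membrane of dying cells, at -0.20 (adjusted p = 0.341). The 6 other ligands of the interleukin-1 family had a median of 0.06 and a range of -0.10 to 0.13. All 6 had means under the median feature, and Il1f5 and Il33 were the brightest of them (0.03 and -0.10, adjusted p = 0.935 and 0.769).

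Among 8 receptors and decoys the median was 0.04 and the range -0.28 to 0.61. Means of 6 of them lay under the median feature, and Il1r1 and Il1rl1, also on this list, were not among the measured genes. Il1rap, the shared accessory chain of the interleukin-1 receptors, was at 0.61 without passing the test (adjusted p = 0.361), and Sigirr, a receptor that dampens signalling, was at 0.04 (adjusted p = 0.905). The 16 signal transducers had a median of -0.02 and a range of -0.15 to 0.66, with the ubiquitin-conjugating partner Ube2v1 at -0.03 and the adaptor Tab2 at -0.02 (adjusted p = 0.94 and 0.954). The upper end was Irak3, a kinase-like protein that dampens this signalling, with all H10 values above all C8 values (adjusted p = 0.0796). The 21 immediate targets of NF-kB, which interleukin-1 switches on within minutes to hours, also had a median of -0.02, with a range of -0.68 to 0.47. The ends were Cxcl2, a neutrophil chemokine, with all H10 values below all C8 values (adjusted p = 0.461), and Tnfaip3, an inhibitor of NF-kB signalling, with all H10 values above (adjusted p = 0.106). Gbp5, Irak3, Cxcl2 and Tnfaip3 were chosen for mention after their values were seen. Ccl3, a macrophage chemokine, was at 0.16 and Sod2, a mitochondrial superoxide dismutase, at 0.02 (adjusted p = 0.654 and 0.955).

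Because Casp1 and Casp4 are neighbours, the genes beside each of the 10 were read in RefSeq gene order, 3 on either side. Among 48 such genes 3 rose in H10 cells and 0 fell by the adjusted limit, which 1.85% and 1.04% of all named genes passed in those directions. With so few genes these counts say little about the neighbours. Casp4 follows Casp1 directly on chromosome 9. Gria4, a glutamate receptor subunit before the pair, and Casp12, the next caspase after it, did not pass (log2 differences -0.12 and -0.03, adjusted p = 0.703 and 0.951). Both were dim, with means of 5.75 and 4.43, beside lower quartiles of 6.34 to 6.44 on the arrays. Differences near 0 at that level do not show that the rise was confined to the pair. Bco2, a carotenoid-cleaving enzyme whose gene lies next to Il18, had values of 9.99, 10.24 and 10.33 in H10 cells, against 8.22, 7.64 and 7.77 in C8 cells. The lines were far apart, with a log2 difference of 2.31 ± 0.17 (SE) and an adjusted p of 0.00216. The other genes that rose, F830045P16Rik (log2 difference 0.96, adjusted p = 0.00281) and Sirpa, an inhibitory receptor of macrophages (0.85, adjusted p = 0.0263), lie beyond Il1b on chromosome 2. Sirpa missed the limit without H10 replicate 2 (0.107), H10 replicate 3 (0.119), C8 replicate 1 (0.0693), C8 replicate 2 (0.0955) or C8 replicate 3 (0.0744). These 3 neighbours were chosen for mention after their values were seen. Il18 lies in a stretch of chromosome 9 between Kmt2a and Mto1, known from earlier results of these arrays, in which 205 genes brighter than the median feature had a median log2 difference of -0.35, and 3 of them rose and 63 fell. Il18, at 0.60, was on the other side of 0 from that median.

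**Figure D4:**
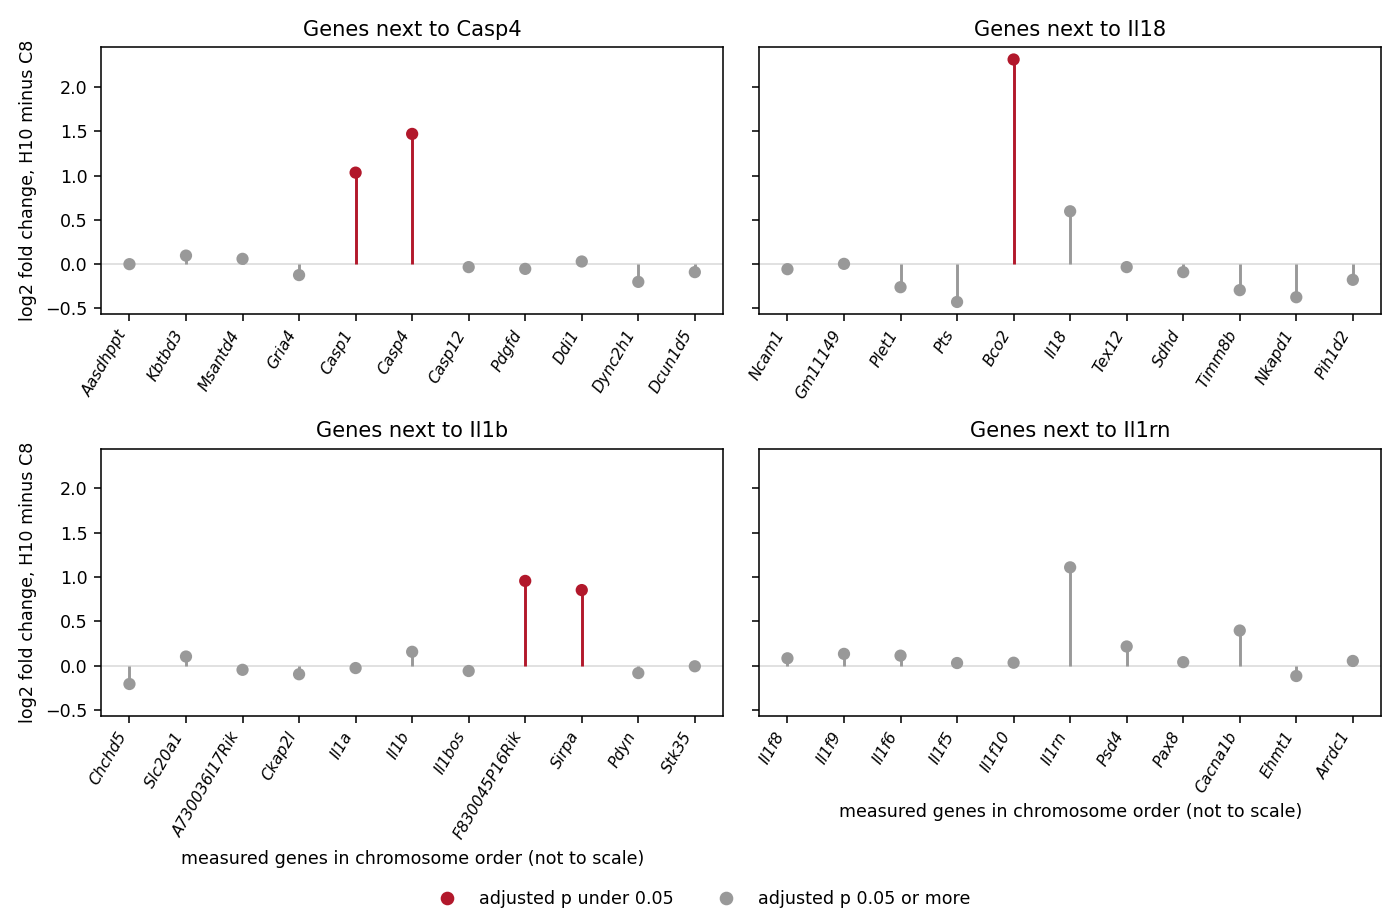
Log2 difference between H10 and C8 cells (y axis) for the measured genes up to 5 places to either side of Casp4, Il18, Il1b and Il1rn (x axis, chromosome order, not to scale), in red for an adjusted p under 0.05. Casp1 (1.03) and Casp4 (1.47) stand next to each other between genes near 0, Bco2 (2.31) stands beside Il18 (0.60), and Il1rn (1.11) stands beside Il1f10 (0.03) and Psd4 (0.22). Gria4 and Casp12, on either side of the caspase pair, and Il1f10 had means under the lower quartile of the arrays, where a difference near 0 says little.

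The markers of the cell types were read beside these results. Adgre1, the gene of the macrophage marker F4/80, rose in H10 cells (log2 difference 2.02, adjusted p = 0.00114), as the only 1 of 9 macrophage markers to do so, and Csf1r, the receptor of macrophage colony-stimulating factor, was at -0.09 (adjusted p = 0.653). Of 10 osteoclast markers 6 rose, namely Ctsk, Acp5, Oscar, Atp6v0d2, Ocstamp and Dcstamp. Several of them were named by the study from these arrays, so that this count is not independent evidence. The 4 that did not pass were Mmp9, Nfatc1, Calcr and Itgb3, with log2 differences of -0.34, 0.14, 0.07 and 0.06. The summed log2 values of the osteoclast markers were 110.2 to 111.9 on H10 arrays and 98.3 to 101.6 on C8 arrays, and those of the macrophage markers 100.3 to 101.2 on H10 arrays and 97.2 to 97.8 on C8 arrays. Adgre1 gave the largest difference in the macrophage sum, and the other macrophage markers ran from -0.15 to 0.56. Both sums were higher in H10 cells, as were Casp1 and Casp4, and their part in the rise of these genes was not tested. Of 27 markers of neutrophils, T and B cells, fibroblasts and dendritic cells 0 passed limma's adjusted limit, while 1 was higher and 2 were lower in H10 cells at an unadjusted p under 0.05. The marker that was higher was Dcn, a matrix proteoglycan of fibroblasts, with values of 8.46, 7.19 and 7.74 in H10 cells, against 6.50, 6.21 and 6.25 in C8 cells (log2 difference 1.48, a fold of 2.78, adjusted p = 0.074). The lines did not overlap for Dcn, which was named after its values were seen. The summed log2 values of the 6 fibroblast markers were 44.1 to 45.4 on H10 arrays and 43.2 to 43.8 on C8 arrays. Dcn alone made the H10 sum the higher, since the other fibroblast markers had log2 differences of -0.14 to 0.02. The part of these markers in the rise of Casp1 and Casp4 was not tested.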

How the data were processed

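Total RNA of H10 and C8 cells, 3 arrays each, had been hybridised to Affymetrix Mouse Gene 1.0 ST arrays. The authors deposited log2 values after RMA, which corrects background, applies quantile normalization and summarises the probes of a feature; Affymetrix Expression Console is the tool in the submitters' processing notes, and its version is not given in the sources used here. RMA compresses differences of dim features, and probes measure level only relative to the same probe on other arrays. The table held 35545 features, of which 21781 carried 1 gene symbol, 1621 several and 12143 none; the symbols come from the platform annotation. Array medians were 7.69 to 7.72 in H10 and 7.65 to 7.74 in C8 cells. No columns were left unmapped. Precision is limited by the number of arrays.

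The deposited values were fitted without further normalization with limma 3.58.1 (R 4.3.3; lmFit and eBayes, two-sided, Benjamini-Hochberg adjustment over all features, limit 0.05). A gene with several features was read from the brightest over the 6 arrays. The permutation tests were run in Python 3.11.15 with scipy 1.17.1. On simulated data of 35545 features, some with known changes, the fit recovered 92% of 2-fold changes, and 4.98% of its calls were false. Larger changes were also among those added. The simulated noise was normal and independent between features, with variances taken from the fit, so these shares need not hold for the real arrays.

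The members and lists were chosen with earlier results of these data known. Named were all 10 members and, of each pathway list, up to 4 genes in each direction past the test with the largest change and up to 2 that did not pass with the highest mean. The lists covered inflammasome sensors, adaptor and caspases, pores, inhibitors, interleukin-1 ligands, receptors, transducers and NF-kB targets, and markers of macrophages, osteoclasts and other cell types. A gene whose feature carried several symbols, such as Gbp2, was not analysed here. Alternatives left out single arrays or replicate 1 of both lines, added a replicate block, changed the normalization, the filter on dim features, the variance prior, the adjustment, the limit or the choice of feature. Replicate numbers were checked for pairing by correlation over all features and were not read as pairs in the main fit.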

Additional observations from a re-analysis of the deposited data

How the results depend on the processing

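Of the 10 genes, the count that rose in H10 cells was 2, with 1 to 3 when single arrays were left out and 1 at an adjusted p under 0.01, where Casp1 (adjusted p = 0.0107) was lost. The count that fell was 0 under every alternative run. Casp4 passed the limit of 0.05 under all of them (adjusted p = 9.03e-05 to 0.0275) and Il18 under none (0.0812 to 0.575). Il1rn passed with median centring (adjusted p = 0.0458), the filter on dim features (0.018), an intensity trend with a robust prior (0.0371), adjustment over 1 feature per gene (0.0377), averaging over a gene's features (0.00636) and without replicate 1 of both lines (0.0224), but not with quantile normalization (0.062). The log2 difference of Il1a ran from -0.102 to 0.0233 with single arrays left out, and was above 0 without C8 replicate 2. The filter on dim features left Pycard, Il1a and Il1b without a value. Of the other pathway genes, the count that rose was 7, with 6 to 8 when single arrays were left out. The count that fell was 1, with 0 to 1 when single arrays were left out, and it was 0 without replicate 1 of both lines, with the replicate block and at an adjusted p under 0.01.

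Of all named genes 369 rose and 208 fell. With single arrays left out 152 to 346 rose and 40 to 126 fell. At an adjusted p under 0.01 the counts were 164 and 50, and with averaging over a gene's features they were 648 and 531. The filter on dim features raised the count that fell to 423, and without replicate 1 of both lines it was 78. Arrays that share a replicate number had deviations from their line's mean that correlated at 0.166, -0.0043 and -0.12, so the numbers were not read as pairs. With the replicate block 225 genes rose and 71 fell, and Casp1 missed the limit (adjusted p = 0.0507) while Il1rn passed it (adjusted p = 0.0173). The block lowered the SE of Il1rn from 0.20 to 0.08 and that of Nlrp3 from 0.26 to 0.13. It raised the SE of Casp1 and of Casp4 from 0.12 to 0.13. Whether single genes share an effect of the replicate number was not tested. The 3 differences between a cytokine and its antagonist kept their signs with each array left out and with quantile normalization, the alternatives run for them. With single arrays left out they ran from -1.14 to -0.81 for Il1b minus Il1rn, from -1.30 to -1.01 for Il1a minus Il1rn and from 0.43 to 0.90 for Il18 minus Il18bp. Where a value moved with a setting, the cause was not tested.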
